A study of Mus musculus with 11 samples.

Results

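Gcnt2 and Csgalnact1 encode glycan enzymes whose RNA was measured in B10.BR T cells stimulated with C57BL/6 dendritic cells of 4 organs. They are 2 of the 12393 genes that the array names by a single symbol in the platform annotation. All their probe sets were taken, each on its own: 9 of the 22690 on the array, 7 for Gcnt2 and 2 for Csgalnact1. The 2 genes were selected on the organ differences themselves, so their levels by organ are given as a description without a test. Among 7436 genes tested, Gcnt2 ranked 9 and Csgalnact1 ranked 10 by p in limma's F-test over the 4 organs. They ranked 3 and 5 for Liver against the average of the remaining organs, and 17 and 21 for MLN.

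The T cells had been cultured for 4 days with dendritic cells from liver (n = 3 arrays, numbered 2, 3 and 4), MLN (n = 3, numbered 2, 3 and 4), PLN (n = 3, numbered 2, 3 and 4) or spleen (n = 2, numbered 3 and 4). The groups are called Liver, MLN, PLN and Spleen after the organ of the dendritic cells, and the RNA was total RNA of the T cells. B10.BR and C57BL/6 are inbred mouse strains with different major histocompatibility genes, and every group pairs T cells of the first strain with dendritic cells of the second. MLN and PLN customarily stand for mesenteric and peripheral lymph node, which the labels do not spell out. The T cell subset, the purity of the dendritic cells, the age and sex of the mice, any pooling of animals and T cells without dendritic cells are not described in the labels. In such cultures, less RNA of a gene per cell and fewer cells that express it cannot be told apart.

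Gcnt2 is a glycosyltransferase that adds branches of N-acetylglucosamine to chains of poly-N-acetyllactosamine and so turns the linear i antigen into the branched I antigen, known best from red blood cells. Such chains sit on N-glycans, O-glycans and glycolipids, can be capped with sialic acid and fucose, and are bound by galectins. Csgalnact1 adds N-acetylgalactosamine to the linkage sugars on a proteoglycan core protein, which starts a chondroitin sulfate chain in place of a heparan sulfate chain. T cells carry chondroitin sulfate on serglycin in their granules, and in some cells on CD44.

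In the mouse reference GRCm38.p6, Gcnt2 lies at chr13:40859768-40960892 and Csgalnact1 at chr8:68356781-68735621. Gcnt2 is known to have alternative first exons, each spliced to shared later exons, so its transcripts start from separate promoters. RefSeq's table for GRCm38.p6 holds 3 Gcnt2 promoters, on the + strand of chromosome 13, and they are shown as background. Whether the starts bear on the differences between Gcnt2 probe sets was not tested. Each runs from 250 bases before to 50 bases after an annotated start, 300 bases in all, and the capitals mark the bases from the start onward.
Gcnt2 first start, chr13:40859518-40859817: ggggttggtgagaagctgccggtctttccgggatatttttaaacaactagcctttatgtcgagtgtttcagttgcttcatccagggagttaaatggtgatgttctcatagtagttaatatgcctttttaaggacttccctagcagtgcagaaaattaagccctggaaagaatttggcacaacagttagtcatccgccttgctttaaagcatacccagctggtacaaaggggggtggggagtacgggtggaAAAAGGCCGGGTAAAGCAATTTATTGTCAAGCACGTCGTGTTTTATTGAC
Gcnt2 middle start, chr13:40886508-40886807: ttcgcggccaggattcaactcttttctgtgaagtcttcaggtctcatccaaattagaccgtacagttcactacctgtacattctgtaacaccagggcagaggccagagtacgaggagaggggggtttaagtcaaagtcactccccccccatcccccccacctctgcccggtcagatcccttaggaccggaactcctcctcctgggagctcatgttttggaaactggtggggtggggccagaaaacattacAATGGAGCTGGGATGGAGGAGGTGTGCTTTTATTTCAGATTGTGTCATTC
Gcnt2 last start, chr13:40917384-40917683: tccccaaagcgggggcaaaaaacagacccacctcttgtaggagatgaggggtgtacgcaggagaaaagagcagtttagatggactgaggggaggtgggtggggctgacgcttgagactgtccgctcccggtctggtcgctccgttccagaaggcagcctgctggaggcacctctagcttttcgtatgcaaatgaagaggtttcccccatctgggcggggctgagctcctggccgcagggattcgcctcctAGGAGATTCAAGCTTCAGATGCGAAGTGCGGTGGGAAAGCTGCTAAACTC

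The middle start lies 26990 bases and the last 57866 bases after the first. GC content was 44.7% in the first promoter, 52.3% in the middle one and 58.0% in the last, against a median of 52.7% over 32851 promoters of the same length. On either strand, TATAAA (found in 13.6% of all promoters), CCAAT (37.4%), TGANTCA (7.8%) and AGATAA or TGATAA (18.6%) had no match in the 3 windows. GGGCGG (35.7% of all promoters) had 1 match, in the last promoter at -39 from the start. CANNTG (72.3%) had matches at -182 and -36 in the first promoter and at -63, -44 and 15 in the last, and the match at -44 shares 1 base with the GGGCGG match. TTCNNNGAA (8.3%) had 1 match, at -227 in the middle promoter. These matches describe the letters and not bound sites. The sources used here do not link each probe set to 1 of these starts.

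Levels are deposited intensities, or log2(intensity + 16) after quantile normalization where a log2 value is given. Gcnt2 RNA was lowest in Liver cultures and highest in MLN cultures. On probe set 1425503_at, the brightest for Gcnt2, the intensities in Liver replicates 2, 3 and 4 were 52.2, 88.2 and 73.4. In MLN replicates 2, 3 and 4 they were 261.1, 255.2 and 363.1. The 3 PLN replicates read 169.7, 203.6 and 253.8, and Spleen replicates 3 and 4 read 209.7 and 130.6. Every Liver array lay below every other array and every MLN array lay above every other array, while the PLN and Spleen arrays overlapped. The mean log2 level (± SD) was 8.28 ± 0.30 in MLN (n = 3), 7.81 ± 0.21 in PLN (n = 3), 7.41 ± 0.52 in Spleen (n = 2) and 6.45 ± 0.35 in Liver (n = 3). Relative to the mean intensity in Liver, MLN stood 4.11-fold, PLN 2.93-fold and Spleen 2.39-fold higher.

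Within each replicate number Gcnt2 kept the same order of organs, MLN above PLN above Liver, with Spleen between PLN and Liver where it was present. The log2 level of MLN exceeded that of Liver by 1.38 to 2.08 over the 3 numbers, and that of PLN exceeded Liver by 1.12 to 1.54. The 2 Spleen arrays exceeded the Liver array of their number by 0.45 and 1.07. PLN differed from MLN by -0.60 to -0.27, so the neighbours at the top of the order were closer than either was to Liver. Spleen differed from PLN by -0.97 and -0.05, and these neighbours overlapped. Against the average of the remaining organs, Liver differed by -1.38 (SE 0.22), MLN by 1.06 (SE 0.22), PLN by 0.43 (SE 0.22) and Spleen by -0.10 (SE 0.25). With the replicate number as a block, the Liver difference was -1.34 (SE 0.19) and the MLN difference 1.10 (SE 0.19). The Liver and MLN differences use the same arrays, since each organ belongs to the mean that the other is set against.

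Csgalnact1 RNA followed the same order. On probe set 1452366_at the intensities in Liver replicates 2, 3 and 4 were 76.0, 116.9 and 57.6. In MLN replicates 2, 3 and 4 they were 255.8, 204.6 and 317.6. The 3 PLN replicates read 171.7, 191.1 and 231.5, and Spleen replicates 3 and 4 read 171.9 and 177.7. Every Liver array again lay below every other array, while the MLN and PLN arrays overlapped and, after normalization, both Spleen arrays lay below all PLN arrays. The mean log2 level (± SD) was 8.11 ± 0.32 in MLN (n = 3), 7.75 ± 0.14 in PLN (n = 3), 7.50 ± 0.014 in Spleen (n = 2) and 6.62 ± 0.38 in Liver (n = 3). In mean intensity MLN stood 3.11-fold, PLN 2.37-fold and Spleen 2.09-fold above Liver.

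Csgalnact1 also kept the order MLN, PLN, Spleen, Liver in numbers 3 and 4, and MLN, PLN, Liver in number 2. The MLN array exceeded the Liver array of its number by 0.75 to 2.11 in log2 level, a wider range than for Gcnt2. The smallest of these differences was in number 3, where Liver was brightest and MLN dimmest among the arrays of their organ. PLN exceeded Liver by 0.69 to 1.56, and the 2 Spleen arrays did so by 0.47 and 1.16. PLN differed from MLN by -0.55 to -0.05 and Spleen from PLN by -0.40 and -0.23. Against the average of the remaining organs, Liver differed by -1.17 (SE 0.19), MLN by 0.83 (SE 0.19), PLN by 0.34 (SE 0.19) and Spleen by 0.01 (SE 0.22). With the block, the Liver and MLN differences were -1.15 (SE 0.19) and 0.84 (SE 0.19).

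**Figure D1:**
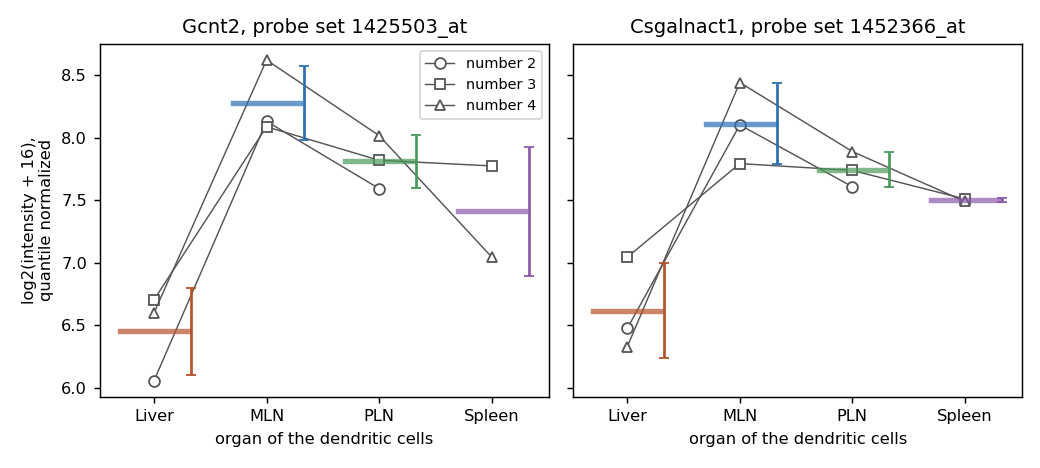
Log2(intensity + 16) after quantile normalization of Gcnt2 (left, 1425503_at) and Csgalnact1 (right, 1452366_at) against the organ of the dendritic cells; each symbol is 1 array, lines join arrays of 1 replicate number, horizontal bars are means and error bars SD. In both panels the 3 Liver arrays lie below every other array, and the lines reach their peak in MLN.

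The lines of the plot of levels by organ rise from Liver to MLN and fall to PLN for each number and gene. Of all genes, 51 of the 7436 genes tested (0.686%) had every Liver array below every other array and 34 (0.457%) had every MLN array above. Only 4 genes (0.0538%) had both, namely Gcnt2, the ATP-gated channel gene P2rx4, the kinase gene Pim1 and the transcriptional repressor gene Hic1, the last 3 named after their values were seen. Since the organ contrasts chose Gcnt2 and Csgalnact1, these shares are their background and nothing is read from them.

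The other Gcnt2 probe sets were dimmer, and only 1425503_at of the 7 lay in the upper 60% of genes by mean level, above an intensity of about 104.7. Probe set 1421415_s_at gave intensities of 61.0, 73.5 and 56.0 in Liver replicates 2, 3 and 4, and 150.1, 139.2 and 128.1 in MLN. It read 88.8, 102.2 and 122.1 in PLN and 114.3 and 98.3 in Spleen. Liver lay lowest and MLN highest without overlap, as on 1425503_at, but the difference between them was smaller, at 0.98 against 1.83 in log2 level. Probe set 1430826_s_at read 8.3, 5.9 and 16.9 in Liver and 121.7, 169.8 and 107.3 in MLN, and 65.5, 78.7 and 47.9 in PLN. Its 2 Spleen arrays were far apart, at 78.9 in replicate 3 and 10.5 in replicate 4, and the latter lay within the Liver range. MLN lay 2.50 above Liver on this set, where Liver values near or below the offset of 16 compress the log2 scale.

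Probe set 1453674_at, which shares its transcript record with 1430826_s_at, read 4.2, 24.8 and 4.1 in Liver and 73.3, 96.6 and 46.7 in MLN. It read 62.1, 63.0 and 55.7 in PLN and 34.5 and 36.7 in Spleen. Liver again lay below every other array, and in log2 level the lowest MLN array lay within the PLN range. The remaining 3 sets did not separate Liver from the rest. Probe set 1451733_at, which shares its record with 1425503_at, ran from 31.5 to 42.9 in Liver, 43.4 to 96.4 in MLN, 46.7 to 64.1 in PLN and 16.8 to 41.7 in Spleen. Here Spleen was lowest on average, and Liver differed from the average of the remaining organs by -0.14 (SE 0.24). Probe set 1437607_at ran from 25.9 to 45.6 over all 11 arrays, with overlapping organs and a Liver difference of -0.13 (SE 0.19). Probe set 1450238_at, which shares its record with 1421415_s_at, stayed between 1.1 and 13.3, below 16 on all 11 arrays, and gives no order of organs.

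The second Csgalnact1 probe set, 1452365_at, comes from the same transcript record as 1452366_at. It read 31.1, 30.3 and 3.7 in Liver replicates 2, 3 and 4, 102.7, 60.1 and 84.0 in MLN, and 63.3, 69.4 and 73.7 in PLN. Spleen read 34.1 and 51.2. Every MLN and PLN array lay above every Liver array, while Spleen reached down to the Liver range in log2 level. Liver differed from the average of the remaining organs by -1.10 (SE 0.28), close to the -1.17 of the brighter set.

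Over all probe sets, Liver lay below every other array on 3 of 7 for Gcnt2 and 1 of 2 for Csgalnact1. MLN lay above every other array on 3 of 7 and 0 of 2, and above every Liver array on 5 of 7 and 2 of 2. Of the 7436 genes tested, 0.686% had Liver below every other array and 0.457% had MLN above. No share over all features is given for MLN above every Liver array, and nothing is read from these counts. Across the 11 arrays, 1425503_at correlated with 1421415_s_at at r = 0.956, with 1430826_s_at at 0.877 and with 1453674_at at 0.858. Its correlation with 1451733_at was 0.472, with 1437607_at 0.369 and with 1450238_at 0.0502. Thus 4 of the 7 Gcnt2 sets shared 1 pattern, while sets from the same record did not always agree. The 2 Csgalnact1 sets correlated at 0.897. These correlations are descriptions over arrays of shared libraries.

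**Figure D2:**
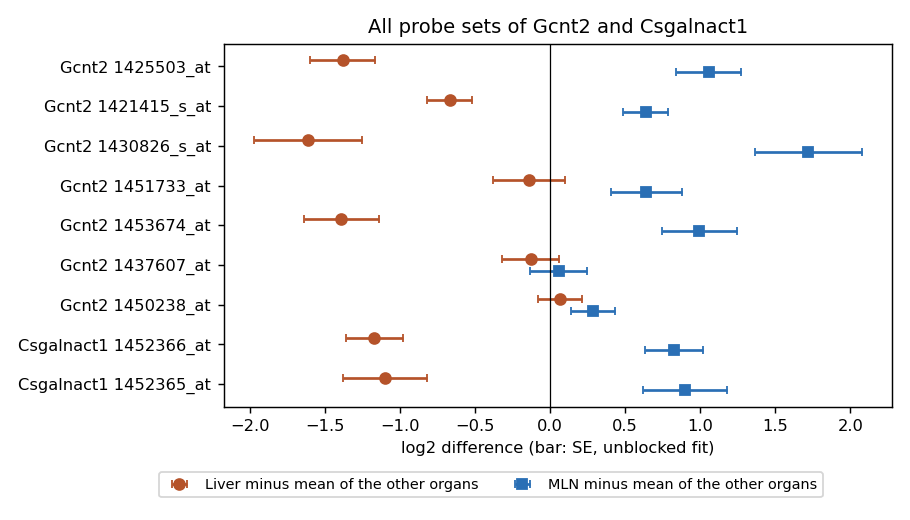
Difference of Liver (circles) and of MLN (squares) from the average of the remaining organs on the log2(intensity + 16) scale for each of the 9 probe sets; bars are the SE of the fit without a block. For 4 Gcnt2 and both Csgalnact1 sets Liver lies between -1.61 and -0.67 and MLN between 0.64 and 1.72. Liver lies near 0 on the other 3 Gcnt2 sets, where MLN lies at 0.64 (1451733_at), 0.29 (1450238_at) and 0.06 (1437607_at).

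The plot of differences by probe set shows both dim and bright sets among those with a low Liver value, and the 3 sets with Liver near 0 are all dim.

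Gcnt2 and Csgalnact1 levels moved together across the arrays. On 1425503_at and 1452366_at the correlation over 11 arrays was r = 0.943 (Spearman's rho 0.973). It was 0.947 after the means of the replicate numbers were subtracted. Without the 3 Liver arrays r was 0.880 (rho 0.952, 8 arrays), and without Liver replicates 2 and 4, the arrays farthest from the Gcnt2 median, it was 0.932. After the organ means were subtracted r was 0.565 (rho 0.709), and after organ and number it was 0.522. Both genes were chosen for their organ pattern, the arrays fall into organ groups and each point shares a library, so these values are descriptions with no test.

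**Figure D3:**
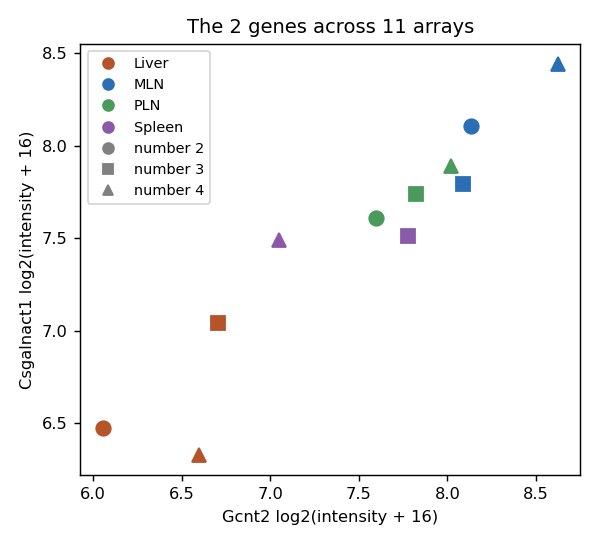
Log2(intensity + 16) of Csgalnact1 (1452366_at, vertical) against Gcnt2 (1425503_at, horizontal) on 11 arrays, coloured by organ, with a symbol for each replicate number. The 3 Liver arrays lie at the lower left and MLN replicate 4 at the upper right.

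In the plot of one gene against the other, MLN replicate 4 is highest for both genes, at 8.62 for Gcnt2 and 8.44 for Csgalnact1. Spleen replicate 4 stands apart from Spleen replicate 3 in Gcnt2, at 7.05 against 7.78, but not in Csgalnact1, at 7.49 against 7.51. The lowest Gcnt2 array was Liver replicate 2, at 6.06, and the lowest Csgalnact1 array was Liver replicate 4, at 6.33.

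The replicate numbers, which separate the arrays strongly, had little share in either gene. For Gcnt2 3.71% of the variance lay between numbers, 88.5% between organs once the number was accounted for, and 7.76% in the rest. For Csgalnact1 the shares were 0.95%, 87.2% and 11.8%. The medians over the tested genes were 51.9%, 18.3% and 22.0%. Between numbers 4 and 3, with the organ in the model, Gcnt2 differed by -0.03 (SE 0.18) and Csgalnact1 by 0.02 (SE 0.18) in log2 level, and neither passed in limma (adjusted p = 0.928 and 0.956), where 43.3% of all genes passed. Between numbers 3 and 2, Gcnt2 differed by 0.39 (SE 0.20) and Csgalnact1 by 0.14 (SE 0.21), and neither passed in limma (adjusted p = 0.205 and 0.696), where 18.9% of all genes passed. The median size of difference over all genes was 0.22 and 0.16. The spread within organs entered the organ contrasts that chose both genes, so these shares and tests are not independent of the choice. Leaving out Spleen replicate 3 or 4 moved the Gcnt2 difference between numbers 4 and 3 from -0.03 to 0.21, leaving out MLN replicate 3 moved the Gcnt2 difference between numbers 3 and 2 from 0.39 to 0.59 (limma adjusted p = 0.0813), and leaving out Liver replicate 3 moved the Csgalnact1 difference between numbers 3 and 2 from 0.14 to -0.10, with no call in any of these cases.

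The tested genes most like Gcnt2 across the 11 arrays, out of 7435, were Ckb, a creatine kinase (r = 0.947), Csgalnact1 (0.943), the hexokinase Hk2 (0.939), the methyltransferase Hemk1 (0.921) and Lrrc8c, a subunit of volume-regulated anion channels (0.916). Those most opposite were Nsg2, a vesicle protein of neurons (-0.957), the DNA glycosylase Neil3 (-0.929) and Stmn1, which destabilises microtubules (-0.925). For Csgalnact1 the nearest were Gcnt2, Ckb (0.941), 1600012H06Rik (0.912), Lrrc8c (0.890) and Hemk1 (0.889). Neil3 (-0.934), the inhibitory receptor gene Pdcd1 (-0.905) and Saa3, a serum amyloid (-0.899), were the most opposite. Thus Ckb, Lrrc8c, Hemk1 and Neil3 stood in both lists, which largely share the organ pattern that chose the genes. Ckb had mean log2 levels of 9.03 in Liver, 9.89 in MLN, 9.59 in PLN and 9.58 in Spleen, and Neil3 had 8.43, 7.82, 7.83 and 8.09. Subtracting the means of the replicate numbers left Ckb at 0.946 with Gcnt2 and 0.952 with Csgalnact1, and Saa3 at -0.965 with Csgalnact1.

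Few genes of any kind passed the test in these organ contrasts, and few other glycan genes did. Of 150 further genes in 10 lists of glycan enzymes and proteoglycans, 125 were on the array under a single symbol and 90 were tested. For Liver against the average of the remaining organs, 0 of 90 passed in limma (9 with p under 0.05 before adjustment), as for 0% of all 7436 genes. With the replicate number as a block, 2 rose and 1 fell, 3.33% of the 90, beside 2.14% of all genes. Without the block, 45 of the 90 stood higher and 45 lower, with a median difference of 0.0001 against 0.0091 for all genes. For MLN, 1 of 90 fell (1.11%, with 8 with p under 0.05 before adjustment), beside 0.0941% of all genes, and with the block 2 fell (2.22%), beside 1.33%. Here 41 were higher and 49 lower, with a median of -0.02 against -0.0048 for all genes. For PLN, 0 of 90 passed without the block (1 with p under 0.05 before adjustment), beside 0% of all genes, and 0 with it (7 with p under 0.05 before adjustment), beside 0.0134%. For Spleen, limma passed 0 of 90 without the block (0 with p under 0.05 before adjustment) and 0 with it (6 with p under 0.05 before adjustment), beside 0% of all genes in both fits. In limma's F-test over the 4 organs 1 of 90 passed (1.11%), beside 0.0403% of all genes, and with the block 3 (3.33%), beside 1.99%.

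**Figure D4:**
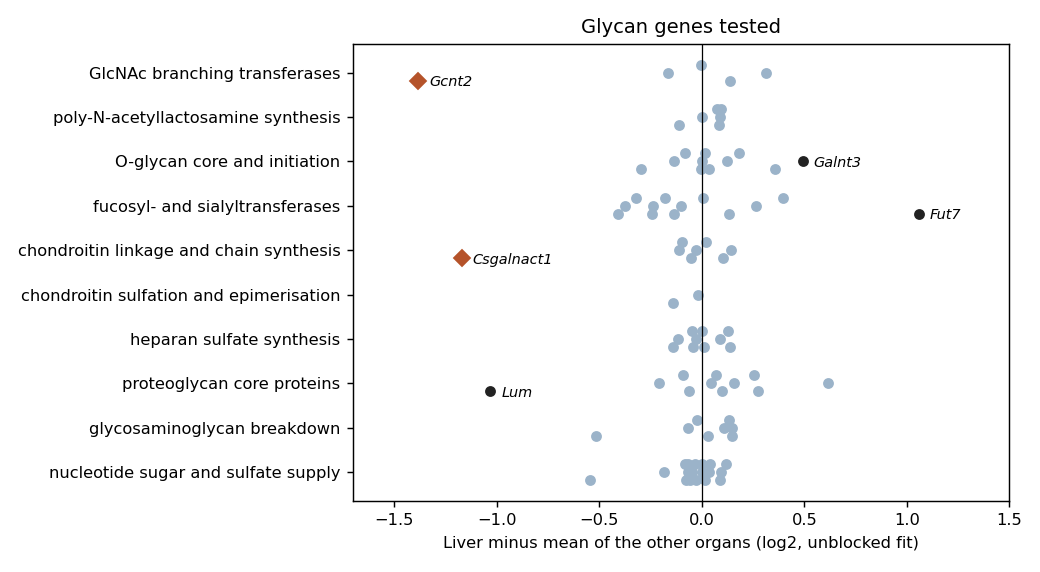
Difference of Liver from the average of the remaining organs (log2, fit without a block) for every tested gene of the 10 glycan lists, 1 list a row. Diamonds mark Gcnt2 and Csgalnact1, at -1.38 and -1.17, and dark points the 3 other genes that passed with the replicate number as a block.

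The branching transferases, the list of Gcnt2, had 4 other tested genes, of which 0 passed in any organ contrast in limma in either fit (without the block 1 with p under 0.05 before adjustment, in MLN, and with it 1 in Liver, 2 in MLN and 1 in PLN). Gcnt1, which makes a branched core of O-glycans, stood at 0.31 (SE 0.27) in Liver and -0.65 (SE 0.27) in MLN. Its limma adjusted p in MLN with the block was 0.0697. Mgat1 and Mgat2, which start the antennae of N-glycans, stood at 0.14 and -0.01 in Liver and -0.09 and 0.11 in MLN, and Mgat4b at -0.16 and 0.19. Mgat5, which makes the N-glycan branch preferred for poly-N-acetyllactosamine, lay below the level tested.

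The list drawn up for synthesis of poly-N-acetyllactosamine, the chain on which Gcnt2 acts, had 6 tested genes, and not every one need build that chain. In limma 0 passed in either fit (without the block 1 with p under 0.05 before adjustment, in MLN, and with it 2 in MLN and 1 in Spleen). B3gnt2, the main extender of poly-N-acetyllactosamine, stood at 0.08 (SE 0.11) in Liver and -0.05 (SE 0.11) in MLN. B4galt1, which adds the alternating galactose, stood at 0.09 and -0.21, and B3gnt5, which acts on the glycolipid lactosylceramide, at 0.09 and -0.37. B4galt6 stood at 0.0034 and 0.04, and B4gat1 at 0.08 and -0.04. Dimmer B4galt6 probe sets stood in Liver and MLN at 0.59 and -0.57 (1460329_at), 0.24 and -0.06 (1423228_at) and -0.01 and 0.20 (1450913_at). On the same scale Gcnt2 stood at -1.38 and 1.06. Gcnt2 was selected on these organ differences and the listed genes were not, so nothing is read from the gap.

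Among 13 capping fucosyl- and sialyltransferases only Fut7 passed, highest in Liver and lowest in MLN. Fut7, which adds the fucose that completes selectin ligands on T cells, had log2 levels of 8.22, 8.25 and 8.41 in Liver and 6.13, 6.80 and 6.46 in MLN. It had 7.55, 7.59 and 7.41 in PLN and 7.68 and 7.77 in Spleen. Liver lay above and MLN below every other array. In MLN it fell by 1.38 (SE 0.15), with limma adjusted p = 0.00661, and with the block it rose in Liver by 1.08 (SE 0.14), with limma adjusted p = 0.00392. The Liver call was lost without Liver replicate 2 (limma adjusted p = 0.0581). St3gal4, a sialyltransferase of selectin ligands, stood at -0.24 in Liver and 0.09 in MLN, and St3gal6 at 0.39 and -0.57, neither passing. Fut8, which adds the core fucose of N-glycans, stood at -0.41 and 0.21, and St8sia4 and St8sia1, which link sialic acids to each other, stood at 0.13 and -0.32 in Liver and at -0.33 and 0.06 in MLN.

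Of 11 genes that start O-glycans or form their core, Galnt3 alone passed, with the block only. Galnt3, which adds the first N-acetylgalactosamine to proteins, rose in Liver by 0.51 (SE 0.11; limma adjusted p = 0.0391) and fell in MLN by 0.56 (SE 0.11; limma adjusted p = 0.0300). Its log2 levels were 9.12, 9.19 and 9.42 in Liver, 8.56, 8.38 and 8.39 in MLN, 8.63, 8.83 and 9.04 in PLN, and 8.67 and 9.27 in Spleen. Liver and Spleen overlapped, and MLN lay below every other array. The Liver call was lost without any 1 of 7 arrays, Liver replicates 2, 3 or 4, MLN replicate 3, PLN replicates 2 or 4 or Spleen replicate 3 (limma adjusted p up to 0.189). The MLN call was lost without any 1 of 6, Liver replicate 2, MLN replicates 3 or 4, PLN replicates 3 or 4 or Spleen replicate 4 (limma adjusted p up to 0.257). A dimmer Galnt3 probe set, 1427749_at, stood at 0.76 in Liver and -1.07 in MLN, and another, 1417589_at, at 0.44 and 0.08. Galnt4 stood at 0.36 in Liver and -0.37 in MLN, Galnt10 at 0.18 and -0.07, and Galnt11 at -0.30 and -0.10, none passing.

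The linkage and chain enzymes of chondroitin, the list of Csgalnact1, had 7 other tested genes, of which 0 passed in limma in any organ contrast in either fit (0 with p under 0.05 before adjustment, and 1 with the block in MLN). Csgalnact2, which catalyses the same step as Csgalnact1, stood at 0.14 (SE 0.19) in Liver and -0.05 (SE 0.19) in MLN. Its mean log2 levels, 8.08 for Liver, 7.94 for MLN, 7.76 for PLN and 8.11 for Spleen, did not follow the order of Csgalnact1. Chpf, which works with chondroitin synthases to lengthen the chain, stood at -0.10 and -0.15. B3galt6 and B3gat3, which complete the linkage sugars, stood at -0.05 and -0.03 in Liver and at 0.50 and 0.05 in MLN. A dimmer B3gat3 probe set, 1431219_at, stood at 0.84 in Liver and -0.32 in MLN. The dimmer B3galt6 probe set, 1435252_at, stood at -0.16 and 0.27. Chsy1, a chain-lengthening synthase, and Xylt1, which attaches the first sugar to the core protein, had no probe set under a single symbol.

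Of the sulfation genes 2 were tested, Chst11 and Chst12, which sulfate the N-acetylgalactosamine of chondroitin, and 0 passed (0 with p under 0.05 before adjustment, and 1 with the block in MLN). Chst11 stood at -0.02 in Liver and -0.09 in MLN, and Chst12 at -0.14 and 0.24. Chst15, which adds a further sulfate, lay below the level tested. Among 10 genes of heparan sulfate, the chain made on the same linkage sugars when Csgalnact1 does not act first, 0 passed in either fit (0 with p under 0.05 before adjustment without the block, and 1 each in MLN, PLN and Spleen with it). They included the polymerase gene Ext2, at 0.14 in Liver and 0.14 in MLN, Extl3, which starts the heparan sulfate chain, at 0.13 and -0.23, Ndst2 at 0.09 and -0.20, and Glce at 0.0030 and -0.09.

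Of 11 proteoglycan core proteins, Lum alone passed, in Liver and with the block only. Lum encodes lumican, a keratan sulfate proteoglycan of connective tissue. It fell by 0.91 (SE 0.11; limma adjusted p = 0.00383), whichever array was left out, and without the block it stood at -1.03 (SE 0.39). Its log2 levels were 7.21, 8.66 and 7.80 in Liver replicates 2, 3 and 4, 8.01, 9.46 and 9.11 in MLN, 8.19, 9.37 and 9.17 in PLN, and 9.37 and 8.60 in Spleen replicates 3 and 4. Liver replicate 3 lay above MLN replicate 2, so the organs overlapped, and Liver was lowest within each number. Srgn, the granule proteoglycan that carries chondroitin sulfate in T cells, stood at -0.09 (SE 0.05) in Liver and 0.08 (SE 0.05) in MLN, and had a mean log2 level of 13.07 in Liver and 13.20 in MLN. Cd44 stood at 0.16 and -0.33, Aplp2 at 0.25 and -0.02, and Nrp1, a coreceptor that can carry such chains, at 0.61 and -0.42, none passing.

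The 8 tested genes of glycosaminoglycan breakdown gave 0 calls in either fit (1 with p under 0.05 before adjustment in Liver and 1 in MLN; with the block 2 and 1). The lysosomal sulfatase gene Ids stood at -0.52 in Liver and 0.08 in MLN, Idua at 0.11 and -0.32, Sgsh at 0.13 and -0.31, and Hexa at 0.15 and 0.04. Among the dimmer Ids probe sets, only 1427813_at shared the Liver direction. The dimmer sets stood in Liver at 0.27 (1434751_at), 0.27 (1421216_a_at), 0.14 (1427812_at) and -0.24 (1427813_at). The 18 genes that supply nucleotide sugars and sulfate gave 0 calls as well (0 with p under 0.05 before adjustment; with the block 2 in Liver, 3 in MLN, 1 in PLN and 2 in Spleen). Slc35a2, which carries UDP-galactose into the Golgi, stood at -0.54 and -0.05. Its dimmer probe sets stood in Liver at -0.28 (1436664_a_at), -0.02 (1432533_a_at) and -0.05 (1422827_x_at). Ugdh, which makes the UDP-glucuronic acid of chondroitin chains, stood at -0.07 and 0.01, Cmas, which activates sialic acid, at -0.18 and 0.11, and Slc35b1 at -0.08 and 0.19.

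Markers of the T cells and of other cells in the cultures were summed over each list for every array. T cell markers, 10 measured, summed to intensities of 24775.4 to 34082.0 in Liver, 24055.7 to 31535.3 in MLN, 24884.9 to 26358.9 in PLN and 24602.5 to 30108.2 in Spleen, so the labelled cell type was marked on all arrays. Dendritic cell markers, 12 measured, summed to 6977.1 to 13649.4 in Liver and 8964.4 to 15063.2 in MLN, macrophage and monocyte markers, 9 measured, to 2803.0 to 3784.7 and 2342.8 to 3198.6, and NK cell markers, 5 measured, to 3222.6 to 7329.3 and 2171.0 to 5674.3. B cell markers, 7 measured, summed to 669.3 to 1175.3 in Liver and 802.1 to 988.8 in MLN, endothelial and stromal markers, 8 measured, to 577.7 to 810.4 and 638.6 to 791.7, and hepatocyte markers, 5 measured and 0 above the level tested, to 150.5 to 207.1 and 161.6 to 183.4. Those ranges overlapped between Liver and MLN. They mix replicate numbers, which pair the arrays, so the overlap does not show that the organs had equal levels. Macrophage and monocyte markers summed to 2568.0 to 3254.5 in PLN and 3388.6 to 4112.5 in Spleen, so Spleen lay above MLN and PLN. Of those tested, Cd14 had mean log2 levels of 7.60 in Liver and 6.24 in MLN, and Lyz2 7.78 and 6.78. Ctss had 11.32 and 11.03, Csf1r 7.57 and 7.37, and Cd68 7.35 and 7.44, so single markers differed more than the sums show. Plasma cell markers, 5 measured, did not overlap between Liver and MLN, with 17150.8 to 18294.6 in Liver and 19252.1 to 23326.9 in MLN. They summed to 17971.0 to 22457.0 in PLN and 15845.1 to 18011.7 in Spleen. Of the 4 tested, 0 passed in limma in either fit (0 with p under 0.05 before adjustment, and 1 each in Liver and MLN with the block). Their mean log2 levels in Liver and MLN were 12.47 and 13.01 for Xbp1 and 9.59 and 9.78 for Prdm1. Ighm had 13.24 and 13.28 and Jchain 10.29 and 10.23, so the markers did not all move alike. Of all markers, Marco alone lay under an intensity of 16 on every array. Without the block 0 markers passed in limma in either organ (p was under 0.05 before adjustment for 2 dendritic cell and 2 macrophage and monocyte markers in Liver, and for 3 T cell and 2 macrophage and monocyte markers in MLN). With the block limma passed 4 in Liver, where 2.14% of all genes passed. These were Cd6, 1 of 10 tested T cell markers, Lyz2, 1 of 5 of macrophages and monocytes, and Klrd1, 1 of 3 of NK cells, all upward (adjusted p = 0.0292, 0.0424 and 0.0438), and Batf3, 1 of 10 of dendritic cells, downward (adjusted p = 0.0387). In MLN, where 1.33% of all genes passed with the block, Cd2, 1 of 10 T cell markers, and Cd14, 1 of 5 of macrophages and monocytes, fell (limma adjusted p = 0.00452 and 0.0323). The called share of these lists was 10% to 33.3% in Liver and 10% to 20% in MLN, each from 1 gene. Before adjustment, limma with the block gave p under 0.05 for more markers, besides the plasma cell markers above. In Liver these were 4 T cell, 2 dendritic cell, 2 macrophage and monocyte and 1 NK cell marker. In MLN they were 5 T cell, 5 dendritic cell, 3 macrophage and monocyte, 1 B cell and 1 NK cell marker. The part of other cells in the Gcnt2 and Csgalnact1 levels was not tested.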

How the data were processed

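T cell RNA was hybridised to 11 single-colour arrays. The deposited values are linear intensities, 1 for each array and probe set, which the authors had scaled so that the mean, after trimming 2% at each end, was 500.2 on every array, as read from the values; the software is not given in the sources used here. Intensities ran from 0.1 to 21556.3, 12.9% to 16.5% of probe sets per array were below 16, and arrays correlated at 0.965 to 0.984. Precision is limited by how few arrays there are.

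Values were taken as log2(intensity + 16) and quantile normalized, which understates changes of dim probe sets. After 64 control probe sets were left out, 20380 had 1 symbol, 691 several and 1555 none; those with several or none were not named or tested. Of the 20380, 20351 symbols were brought to those of GRCm38.p6. Each of 12393 genes was represented by its brightest probe set on average, and the upper 60% by mean level, 7436 genes, were tested. All 11 arrays entered 1 fit in limma 3.58.1 (R 4.3.3; lmFit, and eBayes with a trend; Benjamini-Hochberg over all tested genes at 0.05, two-sided; 7 residual degrees of freedom), with each organ set against the other 3. Differences of single probe sets come from the same fit over all named probe sets. The fit was tested on simulated data.

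With organ means subtracted, array pairs of the same replicate number correlated at 0.412 to 0.731 (15 pairs) and others at -0.708 to 0.0843 (30 pairs), so the numbers pair the arrays; a second fit, with the number as a block, has 5 residual degrees of freedom. Whether arrays of an organ came from different cultures or mice is not in the labels, and p-values therefore cover only the spread among these samples, possibly a technical one. The members and lists were chosen with earlier results of these data known. Named genes are all probe sets of both members, the list genes passing any organ contrast (filled to 4 a list by F-test p), a set of 16 glycan genes taken whatever their values, and the 5 most alike and 3 most opposite genes. Alternatives were other offsets, normalizations and filters, every probe set on its own, the block and leaving out each array.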

Additional observations from a re-analysis of the deposited data

How the results depend on the processing

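The Liver and MLN differences of Gcnt2 and Csgalnact1 kept their sign under all 27 alternatives, at -1.56 to -1.03 and -1.44 to -0.88 in Liver and at 0.84 to 1.34 and 0.64 to 1.10 in MLN. With log2(intensity + 64) the Liver differences were -1.03 for Gcnt2 and -0.88 for Csgalnact1, where the larger offset compresses low values. The count of glycan genes passing in Liver, MLN and the F-test was 0, 1 and 1; with the replicate block it was 3, 2 and 3, and with a random block by number 2, 2 and 2. Among the upper 40% of genes by mean level it was 0 in MLN and 0 in the F-test, where fewer genes are tested. Fut7, the gene that otherwise passed in both, lay below that level and was not tested there. Leaving out each array gave 0 to 1 in the F-test and 0 to 1 in Liver (1 without MLN replicate 3); the F-test call, Fut7, was lost without any 1 of Liver replicates 2, 3 or 4, MLN replicates 2 or 4 or PLN replicates 2, 3 or 4. With the replicate block it gave 1 to 4 in Liver (1 without Liver replicate 2) and 1 to 6 in MLN (6 without Liver replicate 4, and 1 when Liver replicate 2, Spleen replicate 4 or replicate 3 of MLN or PLN was left out). Among the 90 glycan genes other than Gcnt2 and Csgalnact1 the replicate block changed no call beyond those of Fut7, Galnt3 and Lum given in the report. The difference between numbers 4 and 3, which passed in no setting, was -0.20 to 0.21 for Gcnt2 and -0.17 to 0.22 for Csgalnact1 when single arrays were left out, and -0.0036 for Csgalnact1 with log2(intensity + 1). With single arrays left out, that between numbers 3 and 2 was -0.10 to 0.35 for Csgalnact1 and 0.28 to 0.59 for Gcnt2 (0.59 without MLN replicate 3), and passed in no setting. The cause of these changes was not tested. Among the upper 40% of genes neither member was tested, so the number contrasts have no value there. Values near or below an intensity of 16, as in Liver on the dim probe sets, give no reliable order.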
